A study of Oryza sativa Japonica Group with 10 samples.

Results

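Root tips of rice seedlings were compared between the second and the sixth day after the plants had been moved into nutrient solution. The 6 tip libraries of the 10 libraries in the series were taken by their sample labels, 3 of day 2 and 3 of day 6. The other 4 libraries, 2 of each day, hold the mature root, that is, what remained of the root system once the tips were cut off with a scalpel. They are set beside the tip here, and they also entered the filter, the scaling and the estimate of spread in edgeR's fit. All plants were Oryza sativa Japonica, cv. Nipponbare (GSOR-100), with no transgene or added agent. They had germinated for 5 days in the dark, grown on SAP-substrate, and entered Hoagland solution at an age of 12 days, after which roots and shoots alike stood in the light. Each library came from a pool of 6 plants, and the labels describe the replicates as biologically independent. The day 6 plants were also older and were taken on another occasion, so that a difference between days cannot be told apart from one of age, time in solution or occasion.

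The rice root tip holds the meristem, where cells divide around a small quiescent centre, and the elongation zone above it, where cells stop dividing, take up water and lengthen by loosening and rebuilding their walls. Dividing cells make histones, replication proteins and ribosomes in large amounts, while elongating cells use expansins, cellulose synthases and aquaporins. As cells leave the elongation zone they differentiate into epidermis, endodermis with its Casparian strip, and the vessels and sieve tubes of the stele. In a bulk sample of such a tip, fewer cells of a type and less RNA per cell cannot be told apart.

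The 6 tip libraries held 986907 to 2560074 counts, so that a row with 3 counts or fewer was at the limit of detection, which is 1.17 to 3.04 CPM (counts scaled to library size) depending on the library. No molecular identifiers are mentioned in the labels, and such limits cover counting error only. Of the 33486 rows of the table, 19234 passed the filter on low counts and were tested, 16760 of these had a count in all 6 tip libraries, and 7556 had at least 10 CPM in each of them. The filter ran over all 10 libraries, so a row could pass through its mature root counts. With the tip libraries alone 14126 rows passed. The 10 largest rows together took 6.78 to 10.5% of a tip library. Pools of a day differed far beyond counting error, with a chi-square of 14.7 to 30.7 per degree of freedom, so no pool was a repeat of another. Levels are CPM after TMM scaling unless RPKM, which also divides by exon length, is named. In each list of values the 3 day 2 pools come first, in the order of their replicate numbers.

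The tissue label was checked with 19 marker loci, of which 18 were in the table. The 6 loci of the meristem and stem cell niche set summed to 87.95 to 189 CPM in the tip and 90.1 to 546 CPM in mature root, and these ranges overlap. The 7 loci of the mature root set, which include an aquaporin, transporters and secondary wall cellulose synthases, summed to 991 to 2620 CPM in the tip and 2839 to 5090 CPM in mature root, without overlap. Most of that sum was the aquaporin LOC_Os02g51110, with 1246, 1184 and 1099 CPM on day 2 and 2312, 670 and 1263 CPM on day 6 in the tip. Among the niche loci, the homeobox gene LOC_Os01g63510, whose domain class includes regulators of the quiescent centre, had 23.3, 5.86 and 3.21 CPM on day 2 and 26.2, 9.38 and 7.18 CPM on day 6. The PLETHORA 2 locus LOC_Os07g03250, a meristem regulator in Arabidopsis, had 3 counts in a single day 6 pool and 0 in the other 5 tip libraries. The niche set therefore does not separate the tip from mature root, while the mature root set does. On the share of counts the tissues also separated for cytosolic ribosomal proteins, with 9.64 to 12.3% in the tip and 4.47 to 6.83% in mature root.

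Seen as a whole, tips of the same day were no more alike than tips of different days. Over log2 CPM of all tested genes, Pearson's r averaged 0.806 in the 6 pairs within a day, from 0.780 to 0.821, and 0.802 in the 9 pairs across days, from 0.768 to 0.830. The difference of 0.00397 had an exact permutation p of 0.5, where 0.1 is the smallest p that 3 pools against 3 can give. Tips and mature roots had a lower r, 0.676 on average and at most 0.744. The most alike pair of tip libraries was day 2 pool 1 with day 6 pool 2, and the least alike was day 2 pool 2 with day 6 pool 1, both across days. Of the summed squares around the gene means, 21.0% lay between days and 79.0% between pools of a day, where the day takes 20% of the degrees of freedom.

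**Figure D1:**
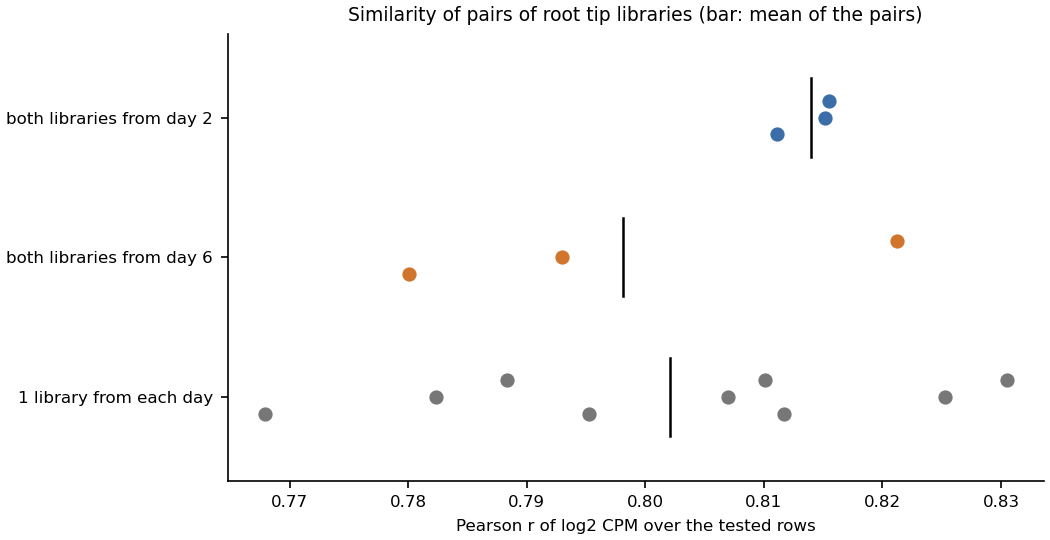
Pearson's r of log2 CPM over the tested genes (x axis) for each pair of tip libraries, with pairs within day 2, within day 6 and across days as 3 rows and a bar at the mean of each row. The 6 within-day pairs span 0.780 to 0.821 and lie inside the range of the 9 across-day pairs, 0.768 to 0.830.

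No single gene passed the test for a difference between days in the tip. With edgeR's quasi-likelihood test over all 10 libraries, 0 of 19234 genes (0%) had a Benjamini-Hochberg adjusted p under 0.05, and the smallest adjusted p was 0.425. At an unadjusted p under 0.05 there were 1069 genes higher on day 6 (5.56%) and 994 lower (5.17%). Genes whose 3 day 6 pools all lay above their 3 day 2 pools numbered 1135 (5.9%), and 1088 (5.66%) had all 3 below. The median absolute log2 fold change was 0.59 with a median standard error (SE) of 0.68. The common biological coefficient of variation (CV, the SD divided by the mean) was 0.589.

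Other tools gave other counts. DESeq2 called 130 genes, 61 higher and 69 lower on day 6, and 89 of these had no overlap between days. Limma's voom with sample weights had 1057 genes at an unadjusted p under 0.05 and a smallest adjusted p of 0.863, so it called 0. EdgeR without a filter on low counts called 1002 of 33486 rows. Of these, 809 were among the 19234 tested above, and 428 of the 809 were high in a single tip library, a class described further on, while 219 had no overlap between days. A missed threshold does not show that the days were alike, and the genes below are therefore given with their values in every pool.

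What the 6 tips held in common was clearest among abundant genes. The 95% interval of the log2 fold change lay wholly between -1 and 1, that is, within 2-fold either way, for 237 of 19234 genes (1.23%). None of the 3787 genes with a mean under 5 CPM in the tip or the 6891 at 5 to 20 CPM had so narrow an interval. The share was 0.391% of 6644 genes at 20 to 100 CPM, 7.49% of 1655 at 100 to 500 CPM and 33.9% of 257 above 500 CPM. The median CV over the 6 tips was 0.867 under 5 CPM and 0.300 above 500 CPM, against 0.472 and 0.0285 for counting error alone. The spread between tips thus exceeded counting error at every level.

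**Figure D2:**
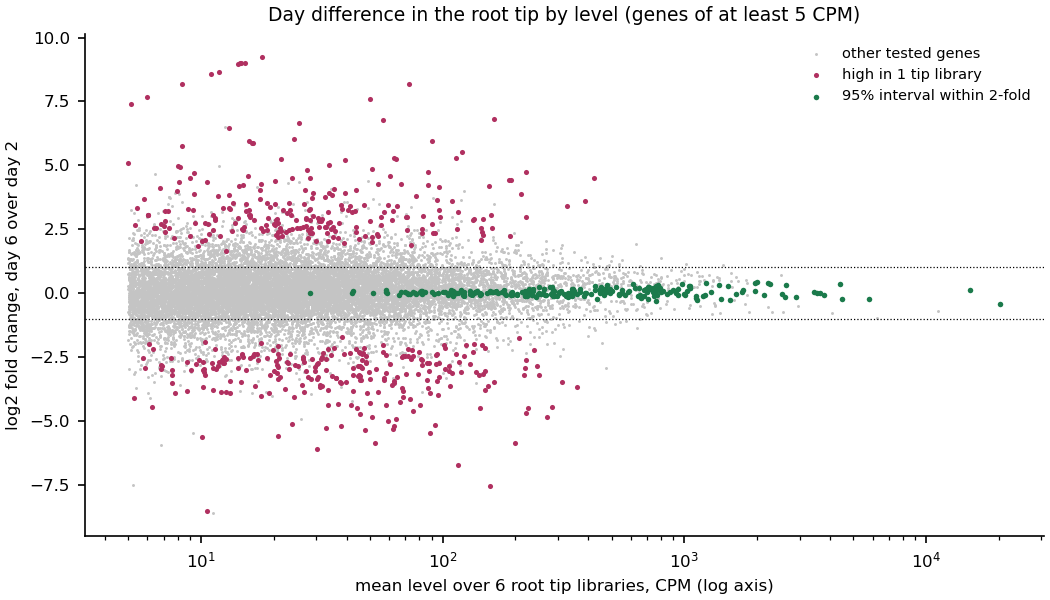
The log2 fold change of day 6 over day 2 in the tip (y axis) against the mean level in the 6 tips in CPM (x axis, log scale) for tested genes of at least 5 CPM, with dotted lines at -1 and 1. The 237 genes whose 95% interval lies within 2-fold (green) sit at the abundant end, and genes high in 1 tip library (red) form the upper and lower edges of the cloud.

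Among genes with at least 100 CPM, the lowest CV belonged to LOC_Os07g45090, the 51 kDa subunit of NADH-ubiquinone oxidoreductase, through which electrons enter mitochondrial complex I. It had 264, 275 and 280 CPM on day 2 and 269, 278 and 234 CPM on day 6. Its CV of 0.0643 was little above the 0.0486 of counting error, and its log2 fold change was -0.07 ± 0.40 (SE). The 6 tips were thus nearly level for this gene, whereas the 4 mature root libraries had 217, 599, 230 and 203 CPM, a CV of 0.613.

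A second level gene was the ribosomal protein LOC_Os04g28180-ext, with 1105, 1244 and 1130 CPM on day 2 and 1117, 1019 and 1075 CPM on day 6 (CV 0.0668). Its mature root values were lower and split by day, 583 and 569 CPM on day 2 and 312 and 274 CPM on day 6. Ribosomal protein L6, LOC_Os09g31180, had 1416, 1080 and 1244 CPM and then 1137, 1214 and 1176 CPM. The ribosomal protein S7 gene LOC_Os05g27940-ext had 251, 298 and 296 CPM and then 303, 251 and 335 CPM. All 3 ribosomal genes overlapped between days in the tip.

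Genes outside the ribosome were as level. PINHEAD, LOC_Os04g47870, of the Argonaute family of small RNA binding proteins, had 138, 165 and 176 CPM on day 2 and 175, 166 and 151 CPM on day 6 (CV 0.0916). S-adenosylmethionine synthetase, LOC_Os01g22010-ext, which makes the cell's methyl donor and the precursor of ethylene, had 3728, 3592 and 2804 CPM and then 3534, 3674 and 3281 CPM. The nucleic acid binding gene LOC_Os03g06980 had 153, 138 and 143 CPM and then 159, 140 and 116 CPM. These genes were picked for their low CV, so their evenness is a description and not a test.

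An RNA recognition motif gene, LOC_Os03g46770, had the highest level per length among the abundant and level genes named here, 4549 RPKM on average over the tips. Its values were 4736, 4722 and 5114 CPM on day 2 and 4114, 3789 and 4571 CPM on day 6. The day 6 pools all lay below the day 2 pools, yet the log2 fold change was only -0.22 ± 0.18. A gene can thus sit below without overlap and still be among the 8 most even genes of the tip.

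Evenness in the tip did not go along with evenness in mature root to any large degree. Of 1912 genes with at least 100 CPM in the tip, 305 had a CV under 0.25 there. Their median CV over the mature root libraries was 0.314, against 0.337 for the others. Over all 1912 genes the median CV in the tip was 0.413, with a range of 0.0643 to 2.43. The mature root CV rests on 4 libraries and the tip CV on 6.

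The gene lists were patterns on the deposited descriptions, and each gives a count of members against the shares of all genes above. For genes without overlap these shares were 5.9% above and 5.66% below on day 6. Among 257 tested cytosolic ribosomal proteins, 51 had an interval within 2-fold, as did 7 of 45 core histones, 5 of 19 tubulins and 4 of 20 aquaporins, beside 1.23% of all genes. These lists hold many abundant genes, for which the interval is narrow in general. By contrast 0 of 40 DNA replication proteins and 0 of 58 cyclins and cell cycle kinases had such an interval, so evenness could not be shown for them at this depth and spread. No member of any of the 43 lists was called by edgeR's test, which called 0 of 19234 genes. DESeq2 called 24 list members, among 130 called of 18908 genes. EdgeR without the filter called 154 list members, among 1002 called of 33486 rows. How many genes the lists hold together is not given here, so these counts do not show if members were called more often.

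Tubulins, the subunits of the microtubules that guide wall deposition and chromosome movement, showed little difference in either direction. Of 19 tested members 0 lay without overlap in either direction, beside 5.9% and 5.66% of all genes. In a list of this size that is a small gap. Their median log2 fold change was 0.0019, beside 0.035 over all genes. It was -0.074 with library totals as the scaling and -0.18 to 0.074 with 1 tip library left out. The most abundant, LOC_Os11g14220-ext, had 3558, 3314 and 3694 CPM on day 2 and 4273, 3159 and 3149 CPM on day 6, with a log2 fold change of 0.0019 ± 0.22. Near-identical tubulin genes can share reads, and the counting could have split them.

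Core histones and DNA replication proteins had more members above than below. EdgeR's test called 0 of both lists, as of all genes. DESeq2 called 0 histones and 1 replication gene, beside 130 of 18908 genes in all. EdgeR without the filter called 1 and 2, beside 1002 of 33486 rows. Of 45 core histones, which package newly replicated DNA, 13 lay above (28.9%) and 3 below (6.67%) without overlap, beside 5.9% and 5.66% of all genes. Their median log2 fold change was 0.32, or 0.51 without day 2 pool 2. Their summed share was 1.55, 1.41 and 0.948% of counts on day 2 and 1.48, 1.54 and 1.63% on day 6, so the ranges overlap. The most abundant histone gene, histone H3 LOC_Os06g04030, had 925, 985 and 917 CPM and then 1513, 904 and 1026 CPM. Among 40 DNA replication proteins 6 lay above (15%) and 3 below (7.5%). PCNA, LOC_Os02g56130, the sliding clamp of the replication fork, had 101, 120 and 141 CPM on day 2 and 119, 267 and 256 CPM on day 6, and its groups overlap. Cyclins and cell cycle kinases had 2 of 58 in each direction (3.45%), somewhat under the shares of all genes. Their median was -0.16, which ran from -0.33 without day 6 pool 1 to -0.029 without day 2 pool 3. Histone genes are near copies of each other and their single values are uncertain for that reason.

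Translation and protein turnover also had more members above than below. Among the 257 ribosomal proteins 46 lay above (17.9%) and 10 below (3.89%) without overlap, beside 5.9% and 5.66% of all genes. Their median log2 fold change was 0.22, or 0.10 without day 6 pool 2. Their share was 9.64, 9.72 and 11.0% of counts and then 10.01, 12.3 and 10.9%. Of 70 translation factors 9 lay above (12.9%) and 2 below (2.86%). Their share of counts overlapped between days, 2.20, 2.19 and 2.57% and then 2.36, 2.79 and 2.30%. The factor with the smallest p, eIF3C LOC_Os02g03080-ext, a subunit of the complex that brings mRNA to the small ribosomal subunit, had 119, 85.0 and 102 CPM on day 2 and 201, 414 and 289 CPM on day 6. All its day 6 pools were above, with a log2 fold change of 1.57 ± 0.40. Of 55 proteasome subunits 10 lay above (18.2%) and 0 below, with a median of 0.41, or 0.15 without day 6 pool 2. Their share was 0.445, 0.587 and 0.420% of counts and then 0.469, 0.585 and 0.580%, so the ranges overlap. The most abundant member, LOC_Os09g32800, had a lower mean on day 6, with 187, 1489 and 149 CPM and then 139, 226 and 203 CPM. Its day 2 mean rested on pool 2. The proteasome subunit LOC_Os08g02550 had 8.08, 16.1 and 14.97 CPM and then 13.1, 133 and 257 CPM, where day 6 pool 1 stayed within the day 2 range. Reads of near-identical ribosomal protein genes can be split between copies, so their counts are less certain singly than as a sum.

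Elongation and wall lists were mixed. Of 32 expansins, which loosen walls, 4 lay above (12.5%) and 0 below without overlap. Of 30 cellulose synthases 2 lay in each direction (6.67%), near the 5.9% and 5.66% of all genes. CESA1, LOC_Os05g08370, a catalytic subunit of primary wall cellulose synthesis, had 94.3, 85.0 and 114 CPM on day 2 and 194, 149 and 387 CPM on day 6, without overlap and with a log2 fold change of 1.31 ± 0.46. CESA9, LOC_Os09g25490, which with CESA4 and CESA7 builds the secondary wall, went the other way, with 64.7, 48.4 and 36.4 CPM and then 20.8, 22.7 and 30.1 CPM (log2 fold change -1.01 ± 0.51). In mature root CESA9 had 37.5 and 59.0 CPM on day 2 and 452 and 150 CPM on day 6, so the later day was the lower one in the tip and the higher one in mature root. CESA4 had 24.2, 13.9 and 22.99 CPM and then 16.9, 13.7 and 48.9 CPM in the tip, and CESA7 had 37.7, 9.53 and 13.9 CPM and then 22.3, 33.2 and 21.6 CPM. Of these 3 secondary wall genes CESA9 alone had no overlap between days. Aquaporins, the water channels of the membranes, had 0 of 20 members in either direction, and so did 17 Casparian strip and suberin genes. In lists this small, 0 is little below the shares of all genes.

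A run of glycine-rich cell wall protein genes stood lower on day 6, a group chosen after its values were seen. Of all 16 such proteins tested, 9 had a lower fitted level on day 6 and 0 passed edgeR's test. Without overlap 4 lay below and 0 above, beside 5.66% and 5.9% of all genes. The median log2 fold change of the 16 was -0.38, beside 0.035 over all genes. All 4 that lay below were among 11 members whose locus names run together on chromosome 10. Of the 11, 8 were lower, with a median of -0.78. LOC_Os10g31640 had 814, 734 and 1190 CPM on day 2 and 246, 439 and 380 CPM on day 6 (log2 fold change -1.36 ± 0.34). LOC_Os10g31660 had 1516, 1604 and 2208 CPM and then 981, 1042 and 1081 CPM. LOC_Os10g31720 had 312, 221 and 152 CPM and then 68.5, 134 and 117 CPM. In all 3 genes each day 6 pool lay below each day 2 pool. A retrotransposon row with a neighbouring locus name, LOC_Os10g31670, had 153, 161 and 232 CPM and then 46.2, 33.6 and 37.3 CPM. Such genes resemble each other, reads may be shared between them, and none of the sources used here says if counting used strand.

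The tip's most abundant described gene was a chaperone. LOC_Os11g47760-ext, a DnaK family protein of the Hsp70 class that folds new and damaged proteins, had 16298, 25104 and 28025 CPM on day 2 and 18511, 16210 and 17306 CPM on day 6. It averaged 1804 RPKM over the tips, below the 2727 RPKM of the elongation factor LOC_Os03g08060-ext, which carries aminoacyl-tRNA to the ribosome. That factor had 12480, 13099 and 18120 CPM and then 16701, 16469 and 14118 CPM (log2 fold change 0.11 ± 0.20). Both genes overlapped between days, the chaperone because day 2 pool 1 lay among the day 6 pools, an overlap that was not seen with library totals as the scaling.

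The heat shock protein LOC_Os09g30439-ext had 10538, 13234 and 17849 CPM on day 2 and 7887, 9025 and 8384 CPM on day 6. Its log2 fold change was -0.72 ± 0.23, with an adjusted p of 0.425 in edgeR's test. LOC_Os09g30418, the heat shock protein with the nearest locus name among those described here, had 3825, 5350 and 6343 CPM and then 2798, 3153 and 2959 CPM (-0.80 ± 0.28). Each gene was lower in all 3 day 6 pools, and reads may be shared between them. In mature root LOC_Os09g30439-ext had 9102 and 8567 CPM on day 2 and 6936 and 3858 CPM on day 6.

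These few rows set the share of the whole chaperone list. Heat shock proteins and chaperones took 4.19, 4.95 and 5.67% of counts on day 2 and 3.42, 3.70 and 3.496% on day 6, that is 4.94 ± 0.743% against 3.54 ± 0.143% (SD, n = 3 pools each). Yet of 139 tested members 8 lay above and 8 below (5.76% each), near the 5.9% and 5.66% of all genes. Their median log2 fold change was 0.076, which ran from -0.037 to 0.16 with 1 tip library left out. The DnaK gene and the 2 heat shock genes above took 3.46, 4.11 and 4.88% and then 2.66, 2.84 and 2.75%. The other 184 rows of the list took 0.728, 0.838 and 0.794% and then 0.762, 0.858 and 0.748%, so the lower share on day 6 was seen in the 3 rows and not in the rest. In mature root the 3 rows took 3.69 and 3.16% on day 2 and 1.97 and 1.59% on day 6. The split into 3 rows and the rest was made after the values were seen.

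Other abundant genes showed little order by day. The ubiquitin gene LOC_Os02g06640 had 4547, 5303 and 15200 CPM on day 2 and 5069, 2873 and 4594 CPM on day 6, with day 2 pool 3 far above the rest. The Bowman-Birk trypsin inhibitor LOC_Os01g03390-ext, of a family that blocks digestive proteases, had 3148, 3710 and 4786 CPM and then 5441, 4720 and 4728 CPM. The peroxidase LOC_Os04g59260-ext had 3749, 3456 and 4403 CPM and then 4623, 3308 and 3196 CPM. All 3 overlapped between days.

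Several genes often used as references were not level either. Actin LOC_Os03g50885 had 528, 576 and 761 CPM on day 2 and 1060, 1168 and 1207 CPM on day 6, without overlap (log2 fold change 0.88 ± 0.28, edgeR adjusted p 0.425). In mature root it had 488 and 653 CPM and then 474 and 428 CPM. The 40S ribosomal protein S27a gene LOC_Os01g22490-ext was also higher in each day 6 pool, 758, 950 and 945 CPM against 633, 650 and 714 CPM. Another locus of the set, LOC_Os11g21990-ext, described only as an expressed protein, lay lower, with 124, 204 and 122 CPM and then 93.9, 106 and 80.4 CPM. Scaled by library totals or by DESeq2 size factors, actin was again higher and LOC_Os11g21990-ext lower without overlap, while S27a overlapped between days with library totals. The 5 reference loci together summed to 2583 to 2991 CPM on day 2 and 3357 to 5030 CPM on day 6, and to 1372 to 2329 CPM in mature root.

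The genes with the smallest p were picked from the contrast itself and are given as a description. The 8 higher on day 6 and the 8 lower, among described genes with at least 20 CPM on average, each had an adjusted p of 0.425 in edgeR's test. DESeq2 called 14 of these 16, and edgeR without a filter on low counts called all 16. The 8 genes higher on day 6 were of several kinds. LOC_Os02g32814, with a heavy metal-associated domain that binds metal ions, had 3.59, 5.86 and 2.14 CPM on day 2 and 29.2, 68.8 and 97.9 CPM on day 6, a 16.9-fold ratio of means (log2 fold change 4.08 ± 0.70). Its mature root values were 26.7 and 84.2 CPM and then 103 and 249 CPM, so the later day was the higher one in both tissues.

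The metallothionein LOC_Os01g74300, a cysteine-rich metal binding protein, had 1.80, 2.93 and 7.49 CPM on day 2 and 20.01, 30.9 and 66.5 CPM on day 6. In mature root it was far more abundant and ran the other way, 846 and 1520 CPM on day 2 and 290 and 244 CPM on day 6. The non-symbiotic hemoglobin 2 gene LOC_Os03g12510, of a family known to bind oxygen and to take part in nitric oxide turnover, had 24.2, 14.7 and 21.9 CPM and then 179, 98.1 and 94.3 CPM, 6.10-fold higher. In mature root it had 52.4 and 43.1 CPM and then 223 and 123 CPM. The hemoglobin gene was thus higher on day 6 in every pool of both tissues.

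Peroxiredoxin LOC_Os07g44440-ext, which reduces peroxides, had 1.80, 5.86 and 5.35 CPM on day 2 and 159, 21.1 and 101 CPM on day 6 (log2 fold change 4.38 ± 0.77). A protein kinase gene, LOC_Os01g10430, had 39.5, 24.2 and 28.3 CPM and then 358, 84.8 and 155 CPM. A second kinase gene, LOC_Os01g01740-ext, had 411 and 230 CPM in day 6 pools 1 and 3, but 21.9 CPM in pool 2, just above the 21.6 CPM of day 2 pool 1. A WD domain gene, LOC_Os02g21490-ext, had 0, 2.20 and 3.74 CPM and then 87.7, 17.6 and 26.5 CPM, and 2 of its day 2 pools lay near the limit of detection. A transposon row, LOC_Os07g31400, completed the group of 8, with 5.39, 6.60 and 6.42 CPM and then 20.8, 44.9 and 87.6 CPM. In these genes the day 6 pools were all higher but spread over several-fold among themselves.

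The 8 lower on day 6 included a MYB and an AP2 gene. The MYB family gene LOC_Os12g37970-ext had 48.5, 84.3 and 89.8 CPM on day 2 and 7.70, 15.2 and 27.8 CPM on day 6 (log2 fold change -2.12 ± 0.48), beside 325 to 442 CPM in mature root. The AP2 domain gene LOC_Os09g11480 had 40.4, 39.6 and 80.7 CPM and then 18.5, 6.25 and 8.08 CPM. Both families bind DNA and regulate transcription in development and stress. The NAC gene LOC_Os06g33940, the member of its list with the smallest p, had 68.3, 54.2 and 88.8 CPM and then 2.31, 10.2 and 23.3 CPM (-2.53 ± 0.68). These genes lay below in each day 6 pool, while their lists were mixed. Of 119 MYB, 76 AP2/ERF and 54 NAC genes, 4, 3 and 3 lay above and 8, 4 and 7 below. Over all genes 5.9% lay above and 5.66% below.

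Other genes of this group were enzymes and lipid proteins. The GDSL lipase LOC_Os12g37910 had 132, 18.3 and 33.2 CPM on day 2 and 4.62, 10.2 and 5.84 CPM on day 6. The gene of the protease inhibitor, seed storage and lipid transfer family LOC_Os11g02389-ext had 36.8, 60.1 and 126 CPM and then 19.2, 5.47 and 15.3 CPM. The DNA repair gene LOC_Os09g01290-ext, of a superfamily whose glycosylases remove damaged bases, had 12.6, 89.4 and 137 CPM and then 1.54, 1.95 and 8.98 CPM. These 3 genes lay lower in each day 6 pool. A DNL zinc finger gene, LOC_Os06g50870, of a class of mitochondrial chaperone partners, had 10.8, 24.9 and 126 CPM and then 3.85, 1.17 and 5.39 CPM. For 2 others the day 2 mean rested on a single pool. The serine esterase LOC_Os02g54580 had 271 CPM in day 2 pool 3 and at most 13.2 CPM elsewhere in the tip, and LOC_Os03g38950-ext, a chloroplast post-illumination protein, had 500 CPM in day 2 pool 2 and at most 10.7 CPM elsewhere.

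**Figure D3:**
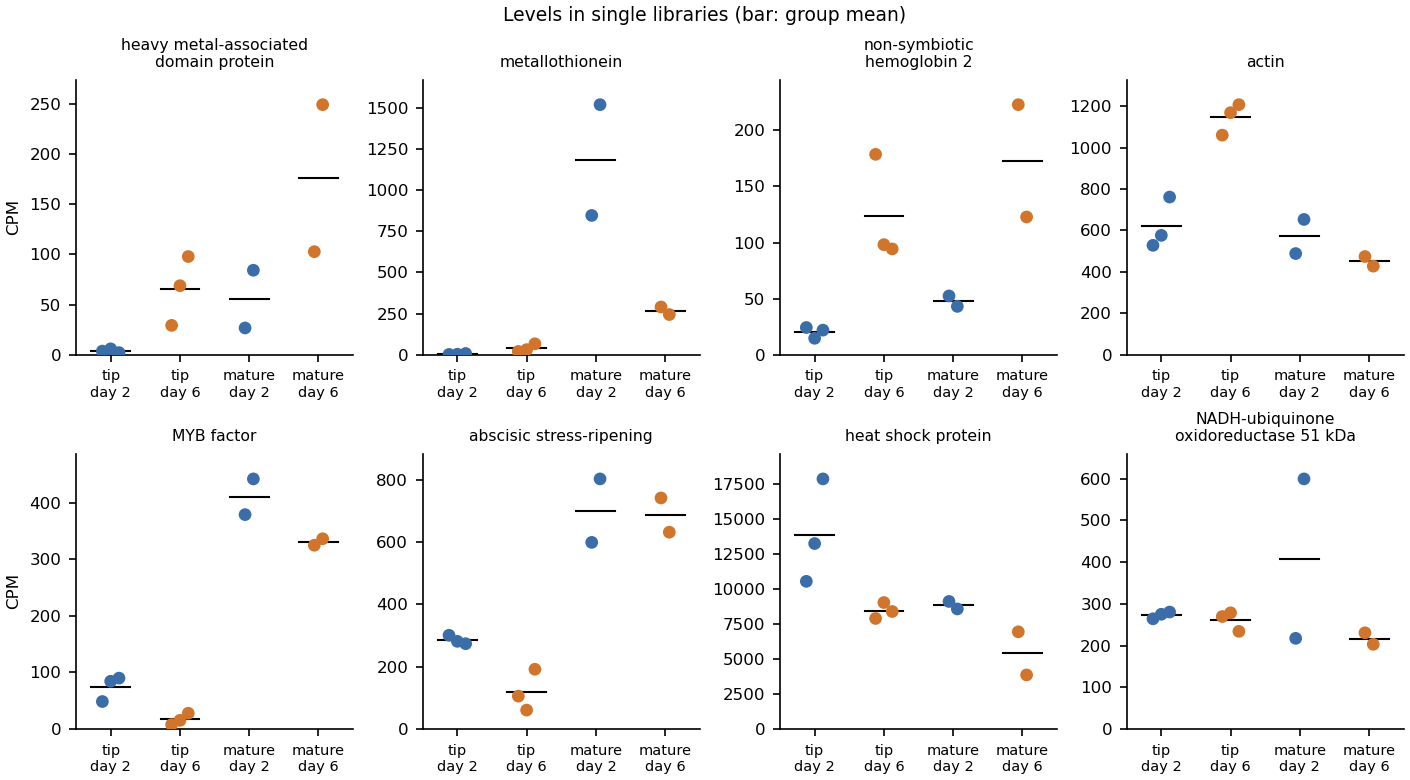
CPM (y axis, from 0) of 8 genes in each tip and mature root library, by tissue and day, with a point per library and a bar at the group mean. In the tip the upper 4 genes are higher in all 3 day 6 pools, the first 3 of the lower genes are lower in all 3, and the NADH-ubiquinone oxidoreductase subunit lies at 234 to 280 CPM in all 6.

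Genes of iron and other metals were among 3 lists whose summed share was higher in every day 6 pool. Their share was 0.190, 0.135 and 0.198% of counts on day 2 and 0.254, 0.247 and 0.320% on day 6. Of 32 tested members 7 lay above (21.9%) and 1 below (3.12%), beside 5.9% and 5.66% of all genes. Their median log2 fold change was 0.66, or 0.40 without day 6 pool 3. Nicotianamine synthase makes the chelator that carries iron inside the plant and from which grasses build the compounds that take iron up from soil. One such gene, LOC_Os03g19420-ext, had 407, 87.95 and 519 CPM and then 774, 809 and 623 CPM, and another, LOC_Os03g19427, had 223, 51.3 and 633 CPM and then 350, 453 and 361 CPM. Nramp6, LOC_Os07g15370, of a family of metal ion transporters, had 19.8, 21.99 and 14.4 CPM and then 105, 29.7 and 93.0 CPM. Nramp6 and the first synthase were higher in each day 6 pool, and the second synthase overlapped. The metallothionein LOC_Os11g47809-ext had 172, 113 and 133 CPM and then 371, 170 and 478 CPM, which overlaps by its lowest day 6 pool. Other metallothioneins went either way, with a log2 fold change of 1.37 ± 0.60 for LOC_Os12g38270-ext and -1.15 ± 0.51 for LOC_Os12g38300-ext. Each of these overlapped between days. Ferritin LOC_Os11g01530-ext, which stores iron, had 44.9, 222 and 132 CPM and then 102, 60.2 and 69.2 CPM. Ferritin overlapped between days as well.

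The other lists with a higher share in each day 6 pool were pathogenesis-related proteins and photosynthesis genes. The former took 0.967, 0.775 and 1.00% of counts on day 2 and 1.13, 1.13 and 1.05% on day 6. Of their 68 tested members 7 lay above (10.3%) and 1 below (1.47%), beside 5.9% and 5.66% of all genes. A large part of the list's share of counts was the Bowman-Birk inhibitor LOC_Os01g03390-ext given above, at 4422 CPM on average over the tips. That gene overlapped between days, and the share without it was not computed. The photosynthesis genes took 0.0399, 0.0432 and 0.0290% and then 0.0625, 0.0569 and 0.0532%, against 0.390 to 0.774% in mature root. Of 38 tested photosynthesis genes 1 lay above and 1 below, so most members overlapped between days. The ferredoxin-NADP reductase LOC_Os03g57120, the most abundant member, took 0.0114, 0.0172 and 0.0111% and then 0.0509, 0.0391 and 0.0246%. The other 76 rows of the list took 0.0285, 0.0260 and 0.0179% and then 0.0116, 0.0178 and 0.0285%, which overlap, so the higher share on day 6 was that of 1 gene. Light signalling and clock genes had a median log2 fold change of -0.68 over 14 members, which ran from -1.01 without day 6 pool 3 to -0.15 without day 2 pool 2, and 1 lay below without overlap, beside 5.66% of all genes. GIGANTEA, LOC_Os01g08700, a clock regulator of flowering, had 566, 575 and 786 CPM and then 844, 679 and 1360 CPM, and phytochrome A, LOC_Os03g51030-ext, had 905 CPM in day 2 pool 3 and 67.8 to 132 CPM in the other tips. None of the sources used here gives the hour of sampling.

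Of the 6 hormone lists, those of ethylene, abscisic acid and auxin had a lower summed share in each day 6 pool, as did the chaperones, while those of cytokinin, gibberellin and jasmonate overlapped between days. Ethylene genes took 0.322, 0.499 and 0.320% of counts on day 2 and 0.251, 0.229 and 0.2498% on day 6. Of 56 members 2 lay in each direction without overlap (3.57%), beside 5.9% and 5.66% of all genes. The ethylene-responsive factor LOC_Os09g20350-ext had 463, 792 and 708 CPM and then 287, 285 and 313 CPM (log2 fold change -1.15 ± 0.33), lower in each day 6 pool. EIN2, LOC_Os07g06300-ext, the membrane protein that passes the ethylene signal on, had 210, 816 and 228 CPM and then 121, 130 and 189 CPM. EIN3, LOC_Os03g20780, the transcription factor at the end of that pathway, had 152, 561 and 198 CPM and then 162, 128 and 173 CPM. Both EIN genes were highest in day 2 pool 2.

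Abscisic acid genes took 0.0530, 0.0385 and 0.0416% and then 0.0218, 0.0190 and 0.0314% of counts. Of its 5 tested members 1 lay below without overlap, the abscisic stress-ripening gene LOC_Os11g06720, with 301, 281 and 274 CPM on day 2 and 105, 60.6 and 192 CPM on day 6. This gene was also the most abundant member and weighed heavily on the list's share. Its means were 285 and 119 CPM, beside mean list shares of 0.0444 and 0.0241% of counts. The share without this gene was not computed. Auxin genes took 0.886, 0.861 and 0.845% and then 0.643, 0.649 and 0.842%, so day 6 pool 3 was almost level with day 2 pool 3. Of 107 auxin genes 4 lay above (3.74%) and 7 below (6.54%), near the 5.9% and 5.66% of all genes. OsIAA3, LOC_Os01g13030, a repressor of auxin response genes, had 102, 122 and 213 CPM and then 53.9, 43.4 and 65.1 CPM (-1.43 ± 0.46). Each of the 7 shares without overlap had an exact permutation p of 0.1, the smallest possible, and the smallest adjusted over the 43 lists was 0.614.

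**Figure D4:**
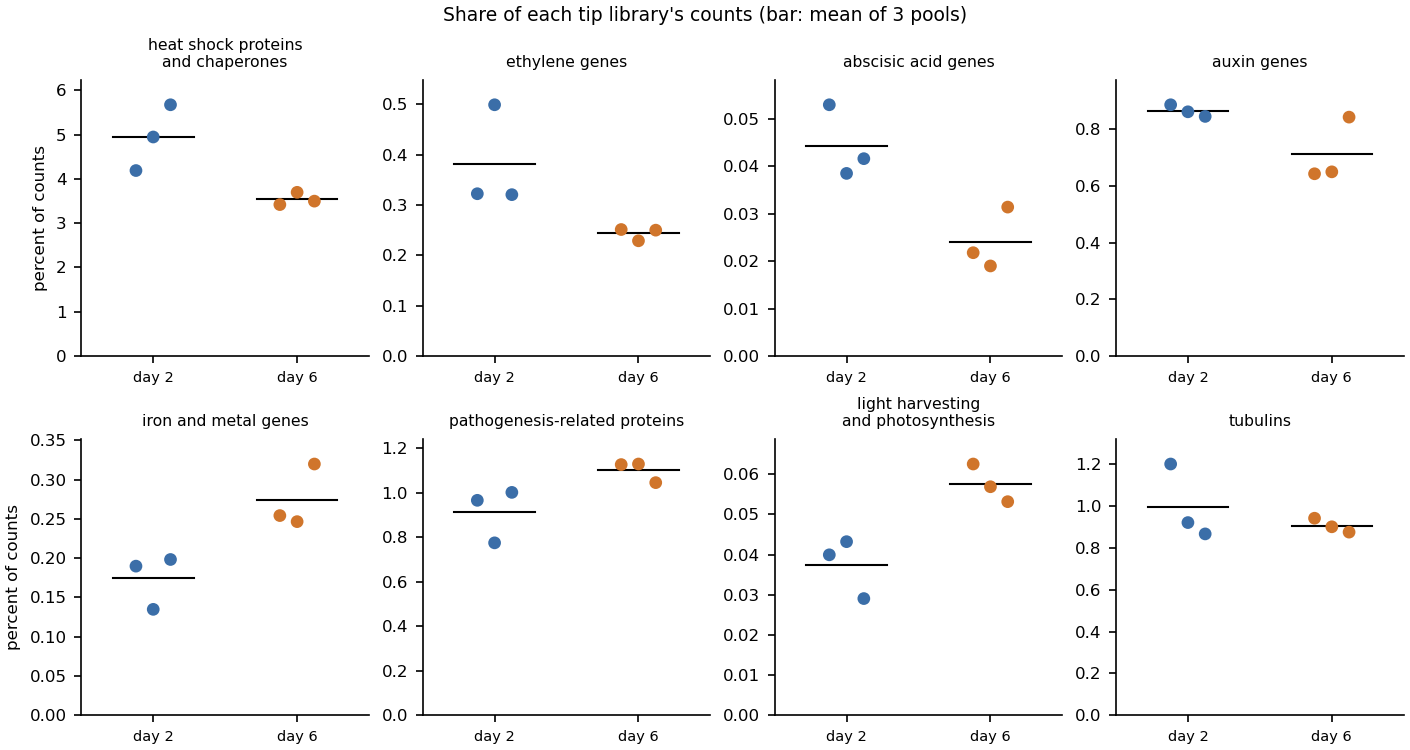
Summed share of counts (percent, y axis from 0) of 8 gene lists in each tip library, with a point per pool and a bar at the mean of 3 pools. Heat shock, ethylene, abscisic acid and auxin genes lie lower in every day 6 pool, iron and metal, pathogenesis-related and photosynthesis genes lie higher, and tubulins overlap.

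Single genes of metabolism and transport also stood apart by day. Sucrose synthase LOC_Os03g28330, which splits sucrose for the growing tip, had 1647, 1741 and 1740 CPM on day 2 and 2452, 1996 and 2383 CPM on day 6. The ferredoxin-NADP reductase of the photosynthesis list, LOC_Os03g57120, of an enzyme class that in roots passes electrons from NADPH to ferredoxin for nitrite reduction, had 101, 182 and 119 CPM and then 560, 391 and 257 CPM (log2 fold change 1.58 ± 0.45). The ammonium transporter LOC_Os04g43070 had 23.4, 13.9 and 11.2 CPM and then 306, 35.2 and 37.3 CPM. None of the 3 overlapped between days. The plastocyanin-like gene LOC_Os03g55120 had 98.8, 123 and 67.9 CPM and then 258, 226 and 409 CPM. The nucleolar GTP-binding gene LOC_Os06g09570-ext, of a class needed to build ribosomes, lay lower, with 300, 415 and 601 CPM and then 183, 221 and 161 CPM.

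Niche regulators showed no order by day, and the pools of the homeobox gene LOC_Os01g63510 given above overlapped as well (log2 fold change 0.41 ± 0.86). SHORT-ROOT, LOC_Os03g31880, a GRAS protein that in Arabidopsis moves from the stele to specify the endodermis, had 15.3, 10.3 and 18.2 CPM on day 2 and 20.8, 10.2 and 30.1 CPM on day 6. A second gene of that kind, LOC_Os07g39820, had 46.7, 37.4 and 50.3 CPM and then 86.2, 48.9 and 27.8 CPM. Both overlapped between days. The other niche loci, the GRAS genes LOC_Os11g03110-ext and LOC_Os12g02870, had 41.3, 11.7 and 14.4 CPM and then 23.1, 17.98 and 7.63 CPM for the first, and 28.7, 22.7 and 12.8 CPM and then 33.1, 21.5 and 17.1 CPM for the second. They overlapped as well. A row outside the marker set and described as SCARECROW, LOC_Os03g48450-ext, named for a GRAS partner of SHORT-ROOT in Arabidopsis, had 20.7, 44.0 and 27.3 CPM and then 3.08, 39.1 and 425 CPM, so its day 6 mean was that of 1 pool.

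LOC_Os03g48450-ext was 1 of many genes that were high in a single pool. A gene was counted as such when 1 tip library had at least 20 CPM and at least 8-fold the level of the next tip library, a rule set after the data had been seen. There were 509 such genes (2.65% of those tested), 360 of them with a description. Turned around, the rule found 2 genes that were low in 1 library. The median level was 148 CPM in the high library and 5.35 CPM in the other 5 tips, and the fold over the next library was 12.7 in the median and 381 at most. Mature root held 429 such genes by the same rule over its 4 libraries.

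The 509 genes were spread unevenly over the pools. Day 2 pools 1, 2 and 3 held 9, 136 and 114 of them, and day 6 pools 1, 2 and 3 held 140, 38 and 72. They took 0.0400, 2.85 and 4.04% of the counts of the day 2 pools and 3.88, 0.383 and 0.829% of those of the day 6 pools. Neither day held all of the rich pools, and day 2 pool 1, the library with the fewest counts, held the fewest. None of the 257 genes with a mean above 500 CPM was of this kind, while 271 of 6644 at 20 to 100 CPM were. Their median exon length was 2241 bases, against 2312 for the other tested genes.

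**Figure D5:**
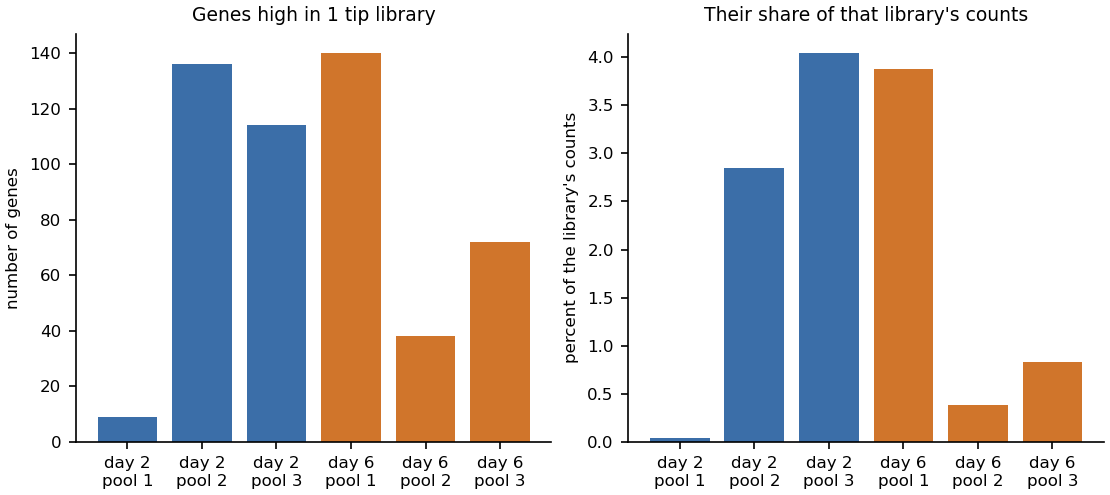
Number of genes high in a single tip library (left) and the percent of that library's counts they take (right) for each of the 6 tip libraries, by the rule of at least 20 CPM and at least 8-fold over the next tip. Day 2 pools 2 and 3 and day 6 pool 1 hold 136, 114 and 140 genes, and day 2 pool 1 holds 9.

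The members came from many kinds of protein. In day 6 pool 1 the acyl-CoA dehydrogenase LOC_Os05g07090-ext, of fatty acid breakdown, had 2225 CPM, and the other tips had 26.9 to 154 CPM. In the same pool a Dicer gene, LOC_Os03g02970-ext, of the class that cuts double-stranded RNA into small RNAs, had 1696 CPM, and the others had 40.4 to 65.2 CPM. These 2 genes were thus present in every tip and far higher in 1. Day 2 pool 2 had 1198 CPM of the thioredoxin fold gene LOC_Os10g20310-ext and 1085 CPM of the annexin LOC_Os02g51750, a membrane binding protein. Day 2 pool 3 had 1567 CPM of the G10 gene LOC_Os12g05410 and 1281 CPM of agmatine deiminase LOC_Os04g39210-ext, an enzyme of putrescine synthesis. The pools with few such genes had lower peaks, such as 62.9 CPM of LOC_Os09g39940 in day 2 pool 1.

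Spread within a day, by the SD of log2 CPM, was ranked among described genes with at least 20 CPM on average. The genes with the largest spread were of this type or at 0 in some pools. Several had a peak in day 6 pool 1, among them a GRAS gene, LOC_Os07g38030, with 704 CPM, the wound-induced protein WIP4, LOC_Os11g37960, with 660 CPM, and the E2F-related gene LOC_Os03g13050 with 335 CPM. The E2F family controls entry into DNA replication. The root cap gene RCLEA6, LOC_Os04g33520, had 51.2, 0 and 1.07 CPM on day 2 and 3.08, 7.04 and 279 CPM on day 6. The root cap covers the outermost tip and is shed, and how much of it each pool held was not tested. The list of root cap and late embryogenesis genes had the second-highest median CV of all lists, 1.05 over 16 members. Of these, 1 lay above (6.25%) and 2 below (12.5%) without overlap, beside 5.9% and 5.66% of all genes. In a list of this size that is a small gap.

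A set of rows varied together across pools in a way that crossed the days. The retrotransposon row LOC_Os01g57960-ext had 4829, 3767 and 64.7 CPM on day 2 and 114, 3335 and 1769 CPM on day 6. With it varied 40 rows, itself included, at an r over 0.9 and an SD over 1.5 on the log2 scale, a screen made after these values were seen. They took 1.73, 0.909 and 0.0116% of counts on day 2 and 0.0242, 0.802 and 0.469% on day 6. Day 2 pool 3 and day 6 pool 1 were low, and the other 4 tips were high. In mature root the share was 0.364 and 0.0428% on day 2 and 0.0101 and 0.0165% on day 6.

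Of the 40 rows 19 had no description, and 10 had locus names in a single run on chromosome 12, with descriptions such as maturase, ATP synthase and cytochrome c oxidase, which plant mitochondria encode themselves. In that run ATP synthase protein 9, LOC_Os12g34108, had 70, 62 and 4 counts on day 2 and 6, 115 and 64 counts on day 6. Cytochrome c oxidase subunit 1, LOC_Os12g33946, had 55, 40 and 1 counts and then 2, 40 and 14 counts. Scaled to CPM, the ATP synthase gene had 62.9, 45.4 and 2.14 CPM and then 4.62, 44.9 and 28.7 CPM. In CPM, though not in raw counts, both genes follow the same order of pools as the retrotransposon row. The list of mitochondrial respiration genes did not share it, with 0.584, 0.584 and 0.617% of counts on day 2 and 0.617, 0.714 and 0.584% on day 6. Another of the 40 rows, the centromere-specific retrotransposon LOC_Os03g42530-ext, had 128, 51.3 and 0 CPM and then 0, 44.9 and 20.7 CPM. Its within-day spread was the largest among described genes with a mean of at least 20 CPM in the tip. The screen picked all these rows for varying with LOC_Os01g57960-ext, so their shared low pools follow from that choice.

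Set beside mature root, the fitted day differences of the tip were only weakly correlated with those of the older root. The 2 contrasts compare different libraries, but the mature root libraries also entered the filter, scaling and spread behind the tip's p-values. The log2 fold changes of the 2 tissues had a Pearson's r of 0.0819 across 19234 genes, which are not independent replicates, and 51.4% had the same sign. The median absolute log2 fold change was 0.59 in the tip (median SE 0.68) and 0.69 in mature root (median SE 0.82). With SEs that large, a low r cannot show whether the tissues shared day differences or not. Among the 2063 genes with an unadjusted p under 0.05 in the tip 54.2% had the same sign in mature root, and among the 16 genes with the smallest p 9 did. EdgeR's test called 0 genes (0%) between days in mature root, with 2072 at an unadjusted p under 0.05. For the difference of the day contrast between tissues it called 0 of 19234 (0%), with 1821 at an unadjusted p under 0.05 and a smallest adjusted p of 0.513, while DESeq2 called 94.

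The 5 genes with the smallest p of that difference included the metallothionein given above. A pfkB family kinase gene, LOC_Os03g06880, of a family of sugar and nucleoside kinases, had 2.69, 13.2 and 9.62 CPM on day 2 and 25.4, 43.4 and 38.2 CPM on day 6 in the tip, and 42.5, 145, 5.81 and 7.82 CPM in the mature root libraries in the same order of days. A growth regulating factor, LOC_Os02g53690, of a family of transcription factors known to promote cell proliferation, had 13.5, 16.1 and 14.4 CPM and then 64.7, 51.6 and 32.3 CPM in the tip, and 37.1, 197, 5.81 and 11.3 CPM in mature root. In both genes day 6 was the higher day in the tip and the lower day in mature root in every pool. The cytochrome P450 gene LOC_Os06g37300, of the enzymes that oxidise many plant compounds, had at most 5.35 CPM in any tip, and in mature root 3.18 and 2.42 CPM on day 2 and 143 and 64.5 CPM on day 6. The difference passed the adjusted test for none of them.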

How the data were processed

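Polyadenylated RNA was sequenced from 6 root tip and 4 mature root libraries. The authors deposited a table of raw, whole-number counts, 1 row per gene model or transcribed region, beside exon lengths and descriptions, per the file headers. Bowtie, TopHat 1.3.1, SAMtools 0.1.12a and Cufflinks 1.0.3 are named in the submitters' processing notes, with no role. None of the sources used here gives the genome build, the counting tool or the use of strand. Per the labels' protocols, fragments of about 200 bp were amplified by 18 cycles of PCR. The meaning of the ending -ext in locus names is likewise not stated.

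In R 4.3.3, edgeR 4.0.16 kept 19234 rows by filterByExpr (minimum count 10, minimum total 15), scaled libraries by TMM and fitted 4 group means over all 10 libraries by quasi-likelihood, so that the groups share an estimate of spread. SEs and 95% intervals are Wald values from that fit. Similarity was computed on log2 CPM (prior count 2). List shares used the exact permutation test over pools. Alternatives used limma 3.58.1 and DESeq2 1.42.0. The code was tested on simulated data.

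Named genes were, among described rows with at least 20 CPM in the tip, the 8 smallest p per direction and the 8 largest within-day SDs. Further described rows were the 10 most abundant and, with at least 100 CPM, the 8 lowest CVs. Per list the most abundant member and that with the smallest p were added, as were all marker loci. So were the described rows with the 5 smallest p of the difference between tissues. Genes outside this rule were chosen after their values were seen, as were those high in 1 pool. Members and lists were chosen with earlier results of these data known.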

Additional observations from a re-analysis of the deposited data

Results flagged for a closer look

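Among the genes with the smallest p in the tip and those with the smallest p of the difference between tissues, 8 were picked because every tip pool of day 6 lay on one side of day 2 and every mature root pool of day 6 on the opposite side. Opposite signs are therefore fixed by the choice. EdgeR's test of the difference gave an adjusted p of 0.513 for each, so none passed. The metallothionein LOC_Os01g74300 had a log2 fold change (day 6 minus day 2) of 3.18 in the tip and -2.15 in mature root. For the kinase gene LOC_Os01g10430 these were 2.70 and -1.79. The pfkB kinase gene LOC_Os03g06880 had 2.05 and -3.76, and the growth regulating factor LOC_Os02g53690 had 1.75 and -3.75. The enoyl-CoA hydratase gene LOC_Os02g43710-ext, of fatty acid breakdown, had 0.816 and -5.46. In the other direction, the DNA repair gene LOC_Os09g01290-ext had -4.21 and 1.65, and the GDSL lipase LOC_Os12g37910 had -3.11 and 0.679. LOC_Os03g38950-ext had -5.47 and 2.22, and its day 2 mean in the tip rested on 1 pool. Mature root had 2 pools per day, and these genes were chosen for a small p among many, so the sizes are a description.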

How the results depend on the processing

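The count of genes called between days in the tip was 0 under every alternative run except 1002 without a filter on low counts and 130 with DESeq2, and for the difference between tissues these gave 554 and 94. The cause was not tested. No pairing of the pools by replicate number was seen, as deviations of same-numbered pools had an r of -0.0369, 0.0163 and -0.0195. Pools of other numbers had -0.0309 to 0.0457. These are deviations around means of 3 pools that differ widely, so a weak pairing could be missed. A replicate block called 0 genes, over all 10 libraries or the tips alone. Intervals within 2-fold numbered 237 as reported, 126 without a filter, 147 with a replicate block over all 10 libraries, 91 with a replicate block in the tips only, and 79 to 120 with 1 tip library left out, where fewer libraries widen the intervals. Within-day minus across-day similarity was -0.00646 without day 2 pool 2 and reached 0.0134 with other libraries left out. Genes high in 1 tip library numbered 1379 at 4-fold and 166 at 16-fold over the next tip. Genes without overlap numbered 1776 to 2730, and 2163 without those high in 1 library, against 2223. The thresholds for genes high in 1 library, the interval counts and this last count were added after seeing the data. Among the fold changes of named genes recomputed, 358 stayed on the same side of the threshold, 31 were called and 0 reversed. List medians stayed within the spread between pools in 604 cases and moved beyond it in 84. The median of all genes was 0.035 as reported and ran from -0.047 without day 6 pool 3 to 0.11 without day 2 pool 3.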
